A study of Mus musculus with 68 samples.

Results

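Kidney RNA taken 2 h after an injection of saline was compared, gene by gene, with kidney RNA of mice that received no treatment. The comparison uses the 3 kidney libraries of the vehicle group at 2 h and the 3 kidney libraries of the untreated group, which are 6 of the 68 libraries of the series, and it covers all genes of the count table. All mice were wild-type C57BL/6J females aged 10 weeks, kept on a light and dark cycle with free access to food. Vehicle mice received 50 to 60 µL of phosphate-buffered saline behind the eye, into the retro-orbital sinus, while under isoflurane, and their organs were frozen 2 h later after a harvest of under 4 min. For the untreated mice the labels describe no injection and no anaesthetic. Other groups of the same study received 1 mg/kg of the growth factor Egf by the same route, or were collected at 6 h, and heart, lung and liver were taken as well. The vehicle group is the reference against which Egf was read, so the comparison with untreated mice measures what differs without any Egf. The fluid, the needle, the anaesthetic and the handling were given together and cannot be told apart, and the time of day of each harvest is not given in the sources used here. Nothing in the labels says whether the vehicle libraries of a group come from separate mice, so p-values measure the spread between these libraries only.

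The 6 libraries held 16455859 to 19949441 counted reads each. All 10 markers of the first proximal tubule segments and all 9 of the thick ascending limb, both defining tubule parts of the kidney, had reads in every one of them. Libraries of one group were not alike in everything, and 3 of them stood apart. Vehicle replicate 1 was high in the immunoglobulin chain Ighm, at 104 CPM (reads of a gene scaled to the size of its library) against 2.09 to 5.17 in the other 5 libraries. It was also high in the chain Igkc, at 90.8 against 1.79 to 3.86 CPM, and in the lung surfactant protein Sftpc, at 20.5 against 0 to 0.349 CPM. The B cell and lung lists as a whole did not follow. Between the groups, 2 of 4 tested B cell markers and 2 of 5 tested lung markers had a log2 change above 0. Vehicle replicate 2 had the highest sum of erythroid markers, at 2220 CPM, and 7.08% of its reads on mitochondrially encoded genes, against 4.86% to 5.89% elsewhere. Untreated replicate 1 had the highest sum of interferon response genes, at 482 CPM against 204 to 262, and of hepatocyte markers, at 2180 CPM against 356 to 1290. Where a list's median moved most without one of these libraries, the value without it, or a bound on the move, is given beside it.

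An injection is a stressor in itself. Handling and anaesthesia raise glucocorticoids, which switch genes on through the glucocorticoid receptor, and many extracellular signals induce a first wave of transcription factor genes, called immediate early genes, whose RNA appears within minutes and decays within hours. The kidney also keeps a circadian clock, so that many of its transporter genes cycle over the day.

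Very few transcripts separated the groups. Of 15654 genes tested, 2 rose and 2 fell in the vehicle kidneys at an adjusted p under 0.05 in edgeR's quasi-likelihood test, which is 0.0256% of the genes tested, or 0.0128% in each direction. The rises were Nr4a3 and Herpud1 and the falls were Marcks and Fzd2. A much larger number, 2130 genes or 13.6%, had an unadjusted p under 0.05. Every vehicle library lay above every untreated one for 1249 genes (7.98%), and every vehicle library lay below for 1704 (10.9%). The count of calls depends on the tool: DESeq2 called 146 genes (0.934%, with 0.403% higher and 0.531% lower), and limma voom with quality weights called 2843 (18.2%, with 8.75% higher and 9.41% lower). Both included all 4 genes called by edgeR. Counts of list members by any tool are to be read beside these shares over all genes, which several lists do not exceed. On the 6 libraries alone edgeR called 0, with a smallest adjusted p of 0.103 and 1803 genes at an unadjusted p under 0.05. A gene or list member is said to have passed where its adjusted p was under 0.05 in edgeR on the 17 kidney libraries, unless another tool is named. It also depends on single libraries, with 12 calls without vehicle replicate 1 and 2 calls, the rises Nr4a3 and Herpud1, without vehicle replicate 2, vehicle replicate 3, untreated replicate 1 or untreated replicate 3.

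Nr4a3 (ENSMUSG00000028341, chromosome 4 from 48045153 to 48086447 on the plus strand of mm39) encodes an orphan nuclear receptor and is a classical immediate early gene. It stood at 3.97, 4.01 and 5.06 CPM in the vehicle libraries and at 0.248, 0.44 and 0.0576 CPM in the untreated ones. The vehicle values rest on 71, 63 and 87 reads and the untreated values on 5, 9 and 1 reads. The groups did not overlap, and the gene was close to undetected without treatment. The fitted log2 change was 4.05 ± 0.417 (SE, n = 3 and 3, adjusted p = 0.00064), a 16.5-fold rise with a 95% interval of 8.94 to 30.5. In the vehicle kidneys at 6 h it was back at 0.166 to 0.752 CPM, and in Egf kidneys at 2 h it stood at 12.8 to 18.4 CPM.

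Herpud1 (ENSMUSG00000031770, chromosome 8 from 95113066 to 95122005, plus strand) encodes a membrane protein of the endoplasmic reticulum that takes part in the disposal of misfolded proteins. Its levels were 502, 560 and 540 CPM with vehicle and 287, 277 and 244 CPM in untreated kidneys, again without overlap. The log2 change was 0.99 ± 0.118 (SE, n = 3 and 3, adjusted p = 0.00242), which is a 1.98-fold rise with a 95% interval of 1.67 to 2.36. Unlike Nr4a3, it remained at 383 to 472 CPM in the vehicle kidneys at 6 h, above the 3 untreated values.

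The promoters of both rises, and of Atf3, the immediate early gene with the next smallest p, are shown because they share a short element. As they are shown for that element, their sharing of it is not a result. The capitals mark TGACG or its reverse complement, the short core of the cyclic AMP response element TGACGTCA, to which the Creb and Atf families of transcription factors bind. The windows are RefSeq sequences of build GRCm38.p6, an older build than that of the counts, and run from 250 bases before to 50 bases after the gene start, at chr4:48045055-48045354 (plus strand), chr8:94386179-94386478 (plus strand) and chr1:191183284-191183583 (minus strand).
Nr4a3: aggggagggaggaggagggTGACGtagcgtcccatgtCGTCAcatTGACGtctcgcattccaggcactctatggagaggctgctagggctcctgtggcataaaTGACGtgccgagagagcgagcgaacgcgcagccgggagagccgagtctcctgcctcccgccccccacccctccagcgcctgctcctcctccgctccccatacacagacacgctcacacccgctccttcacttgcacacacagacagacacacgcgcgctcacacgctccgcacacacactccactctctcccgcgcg
Herpud1: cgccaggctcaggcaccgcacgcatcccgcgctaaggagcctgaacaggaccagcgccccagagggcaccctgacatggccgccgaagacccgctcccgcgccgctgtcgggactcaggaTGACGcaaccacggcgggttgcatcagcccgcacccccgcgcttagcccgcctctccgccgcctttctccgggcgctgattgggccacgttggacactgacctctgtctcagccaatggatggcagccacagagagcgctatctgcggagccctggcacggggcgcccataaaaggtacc
Atf3: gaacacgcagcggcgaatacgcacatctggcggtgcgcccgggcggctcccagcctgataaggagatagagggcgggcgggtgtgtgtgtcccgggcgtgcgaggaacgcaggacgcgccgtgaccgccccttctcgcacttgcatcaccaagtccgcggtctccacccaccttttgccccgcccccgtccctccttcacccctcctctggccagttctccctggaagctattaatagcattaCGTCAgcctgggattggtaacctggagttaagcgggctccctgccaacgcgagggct

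Nr4a3 held 4 such cores, beginning 231, 213, 205 and 147 bases before the gene start, while Herpud1 held 1 at 130 bases and Atf3 1 at 7 bases. On either strand, 21% of the 27025 promoters in the table held at least 1 TGACG and 0.252% held 4 or more. None of the 3 windows held the full TGACGTCA, found in 1.88% of promoters, the E-box CACGTG (7.24%), the D-box TTATGNAA (3.52%), the heat shock element GAANNTTC (7.95%) or the glucocorticoid element in its relaxed form (0.463%) or its full form (0.0037%). A TGACG inside a full TGACGTCA is counted under both. Among immediate early genes tested, 15 of the 25 with a window held the core. Marcks and Fzd2 have no window among these promoters, so the falls could not be set beside the rises. These are matches of letters in a short window and describe the sequence only.

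Marcks (ENSMUSG00000069662, chromosome 10 from 37009371 to 37014916, minus strand) encodes a membrane protein that binds actin and is a substrate of protein kinase C. It was measured at 30.7, 23.2 and 24.3 CPM with vehicle and at 59, 52.8 and 59.7 CPM without treatment. No vehicle library reached an untreated one, and the log2 change was -1.13 ± 0.15 (SE, n = 3 and 3, adjusted p = 0.00585). The vehicle kidneys at 6 h stood at 29 to 35.8 CPM, still below the untreated ones. The call on Marcks was lost, at adjusted p of 0.067, 0.095, 0.052 and 0.0669, when vehicle replicate 2, vehicle replicate 3, untreated replicate 1 or untreated replicate 3 was left out, with log2 changes between -1.1 and -1.06.

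Fzd2 (ENSMUSG00000050288, chromosome 11 from 102495222 to 102498884, plus strand) encodes a Frizzled receptor for Wnt ligands. Its values were 5.26, 5.54 and 4.88 CPM with vehicle and 9.34, 9.04 and 11.3 CPM in untreated kidneys, so the groups did not overlap. The log2 change was -0.92 ± 0.135 (SE, n = 3 and 3, adjusted p = 0.016). By 6 h the vehicle kidneys had a mean of 9.31 CPM, near the untreated mean of 9.89 CPM. The call on Fzd2 was lost without the same 4 libraries, at adjusted p of 0.0673, 0.14, 0.0625 and 0.225 in that order.

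**Figure D1:**
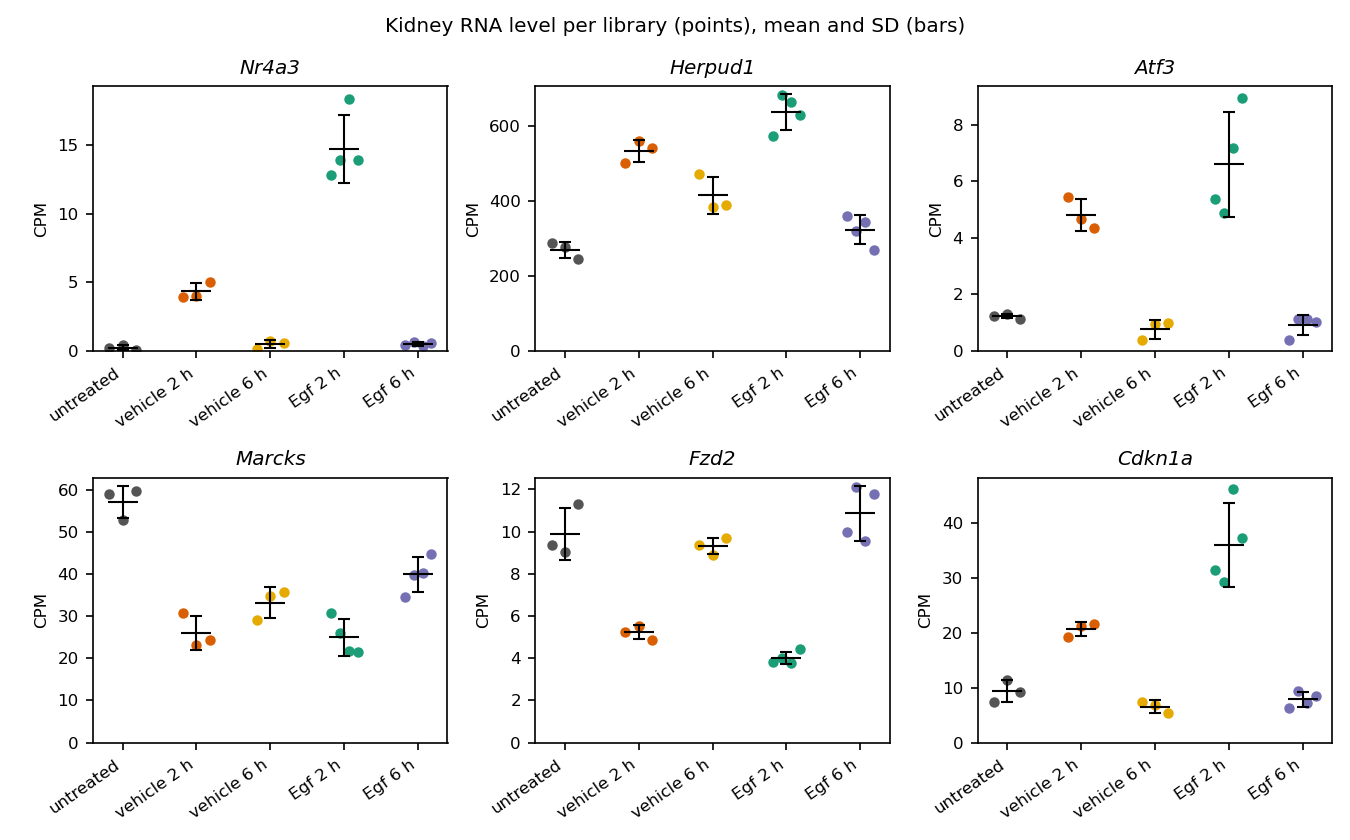
CPM of 6 genes in the 17 kidney libraries, by group, with 1 point per library and bars for the mean and SD. Nr4a3, Herpud1, Atf3 and Cdkn1a are higher in the 3 vehicle libraries at 2 h than in the 3 untreated ones and Marcks and Fzd2 are lower, with adjusted p of 0.0723 for Atf3 and for Cdkn1a.

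Among the immediate early genes, 1 of 31 tested passed in the upward direction and 0 passed downward, while DESeq2 called 4 higher and limma voom 11 higher and 2 lower. The median log2 change of the list was 0.23, against -0.026 over all genes tested, and 23 members lay above 0. Atf3, a stress-induced transcription factor, read 5.43, 4.65 and 4.36 CPM with vehicle and 1.24, 1.32 and 1.15 CPM untreated. Its groups did not overlap, and the log2 change of 1.95 ± 0.337 (SE) missed the threshold at adjusted p = 0.0723. It passed in DESeq2 (adjusted p = 8.35e-06), and its mean in the vehicle kidneys at 6 h was 0.774 CPM.

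Nr4a1, a close relative of Nr4a3, had a mean of 5.05 CPM with vehicle and 2.44 CPM untreated, a log2 difference of 1.04 (adjusted p = 0.247). Maff, a small Maf transcription factor, differed by 1.16 (adjusted p = 0.139), and Ier5l by 0.58 (adjusted p = 0.237). None of the 3 passed in edgeR, although in each case all vehicle libraries exceeded all untreated ones. Maff and Ier5l passed in DESeq2 (adjusted p = 0.023 and 0.0487), and limma voom called all 3. Of the 31 genes tested, 10 had all vehicle libraries above and 1 all below, where the shares over all genes tested were 7.98% and 10.9%. Crem, a cyclic AMP responsive transcription factor outside the list and chosen after its values were seen, stood at 19.9, 32.1 and 23.7 CPM against 11.8, 14.9 and 15 CPM (log2 difference 0.86, adjusted p = 0.139 in edgeR and 0.0105 in DESeq2).

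No glucocorticoid-induced gene passed in edgeR: 0 of 30 in either direction, with 5 at an unadjusted p under 0.05, each of them higher with vehicle. Over all genes tested, 13.6% had such a p in either direction. DESeq2 called 5 higher, Cdkn1a, Mt1, Angptl4, Zbtb16 and Fkbp5, and limma voom called 6 higher and 1 lower. The list median was 0.20, and 0.02 without vehicle replicate 1. Zbtb16, a transcription factor gene strongly driven by the glucocorticoid receptor, read 16.1, 5.6 and 10.9 CPM with vehicle and 1.89, 1.61 and 1.33 CPM untreated. The groups did not overlap, but the vehicle libraries differed widely among themselves, and the log2 difference of 2.75 ± 0.579 (SE) did not pass (adjusted p = 0.136).

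Fkbp5, the co-chaperone that feeds back on the receptor, read 85.8, 45.3 and 78.4 CPM with vehicle against 28.1, 28.8 and 35.5 CPM untreated, with a log2 difference of 1.18 ± 0.31 (SE, adjusted p = 0.209). Both Zbtb16 and Fkbp5 were lowest, among vehicle libraries, in replicate 2. Cdkn1a, the cell cycle inhibitor p21, was tighter, at 19.2, 21.3 and 21.6 CPM against 7.45, 11.4 and 9.16 CPM, and reached an adjusted p of 0.0723 at a log2 difference of 1.14 ± 0.198 (SE). The metallothionein Mt1 differed by 0.64 and the lipase inhibitor Angptl4 by 1.64, both at adjusted p = 0.122.

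The transcript of the receptor itself, Nr3c1, was at 89.4, 86.6 and 86.2 CPM with vehicle and at 116, 111 and 124 CPM untreated, without overlap. Its log2 difference of -0.42 ± 0.0848 (SE) did not pass in edgeR (adjusted p = 0.122) and passed in DESeq2 (adjusted p = 0.000808). That gene was also chosen after its values were seen. Nr3c2, the mineralocorticoid receptor, differed by -0.48 (adjusted p = 0.247), and Sgk1, a kinase induced by both receptors, by 0.48 with overlapping groups (adjusted p = 0.392).

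Of 27 tested genes of the response to unfolded proteins and amino acid shortage, 1 passed upward, Herpud1, and 0 passed downward. DESeq2 called 1 higher and limma voom 4 higher. The list ran from -0.51 to the 0.99 of Herpud1, with a median of 0.03, and 0.14 without vehicle replicate 1. Its members Dnajb9, Creld2 and Manf differed by 0.38, 0.30 and 0.30, and the disulfide isomerase Pdia4 by -0.36. Each had overlapping groups, with edgeR adjusted p of 0.346 to 0.478. Of 22 cytosolic heat shock genes 0 passed in edgeR or DESeq2 and 3 were higher in limma voom, with a median of 0.02, and Dnajb1, a co-chaperone of Hsp70, differed by 0.45 (adjusted p = 0.327).

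**Figure D2:**
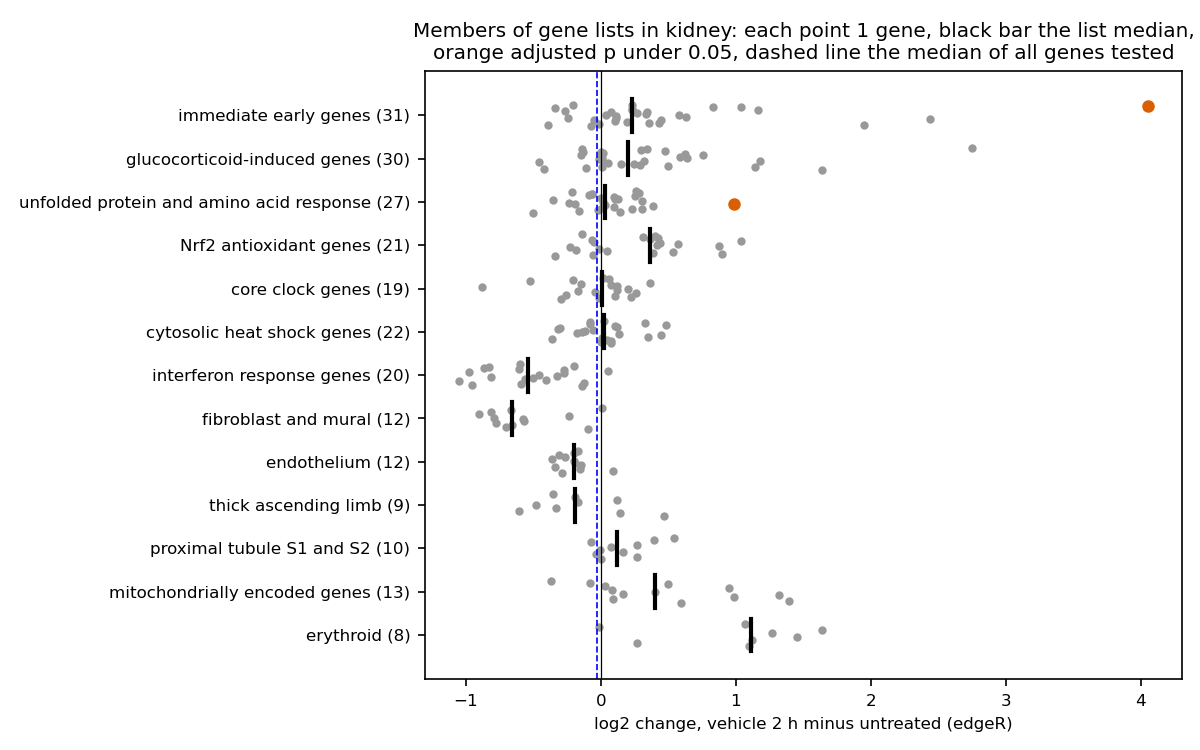
Log2 change of every tested member of 13 gene lists in kidney, vehicle 2 h minus untreated, with the number tested after each name. Nr4a3 at 4.05 and Herpud1 at 0.99 are the members called by edgeR, and the medians run from -0.66 for fibroblast and mural markers to 1.11 for erythroid markers.

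No core clock gene was called by edgeR or DESeq2. Of 19 tested, 1 had an unadjusted p under 0.05 in edgeR (Clock, -0.26 ± 0.116 SE, adjusted p = 0.353), and Clock was the 1 member called by limma voom (adjusted p = 0.012). The median was 0.01, and 0.18 without untreated replicate 1. All 19 had overlapping groups. The activators Arntl and Npas2 differed by -0.29 and -0.88, the repressors Per1, Per2, Per3, Cry1 and Cry2 by -0.15, 0.36, -0.53, 0.26 and -0.05, and the nuclear receptors Nr1d1, Nr1d2 and Rora by 0.12, 0.07 and -0.21. The output regulators Dbp, Tef, Hlf and Nfil3 differed by -0.17, 0.01, 0.12 and 0.20, and Bhlhe40, Bhlhe41 and Ciart by -0.02, 0.22 and 0.11.

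For several of them the untreated kidneys differed widely among themselves. Arntl stood at 2.29, 6.99 and 10.3 CPM in untreated replicates 1, 2 and 3, and Npas2 at 1.59, 3.37 and 5.36 CPM. Dbp stood at 121, 50.4 and 34.5 CPM in the same libraries, and Per3 at 9.39, 5.62 and 3.05 CPM. Untreated replicate 1 was thus lowest for both activators and highest for Dbp and Per3. For these genes the vehicle kidneys at 6 h departed in the same direction and further, with a mean of 0.91 CPM for Arntl and 170 CPM for Dbp. Cry2, Tef, Per2, Hlf, Nr1d2 and Ciart did the same, as did Clock in the downward direction. Some other members did not. Nr1d1 was highest in untreated replicate 1, at 118 CPM, and had a mean of 52 CPM in vehicle kidneys at 6 h. Per1 stood at 17.3 CPM in that library, between 32.5 and 9.16 CPM in the other untreated ones, against a mean of 48.8 CPM at 6 h. The vehicle libraries at 2 h spread less, at 3.69 to 6.57 CPM for Arntl and 44.9 to 79.9 CPM for Dbp. The 95% interval of the Dbp difference ran from -0.87 to 0.53. For other members the vehicle libraries spread more, as for Bhlhe40, at 96 to 174 CPM with vehicle against 131 to 143 CPM untreated. Wee1, a kinase gene under clock control, differed by 0.67 without overlap, at an adjusted p of 0.209 in edgeR, 0.0328 in DESeq2 and 0.0129 in limma voom. Of 17 clock output genes 0 passed in edgeR, 1 was higher in DESeq2, and 2 were higher and 1 lower in limma voom.

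**Figure D3:**
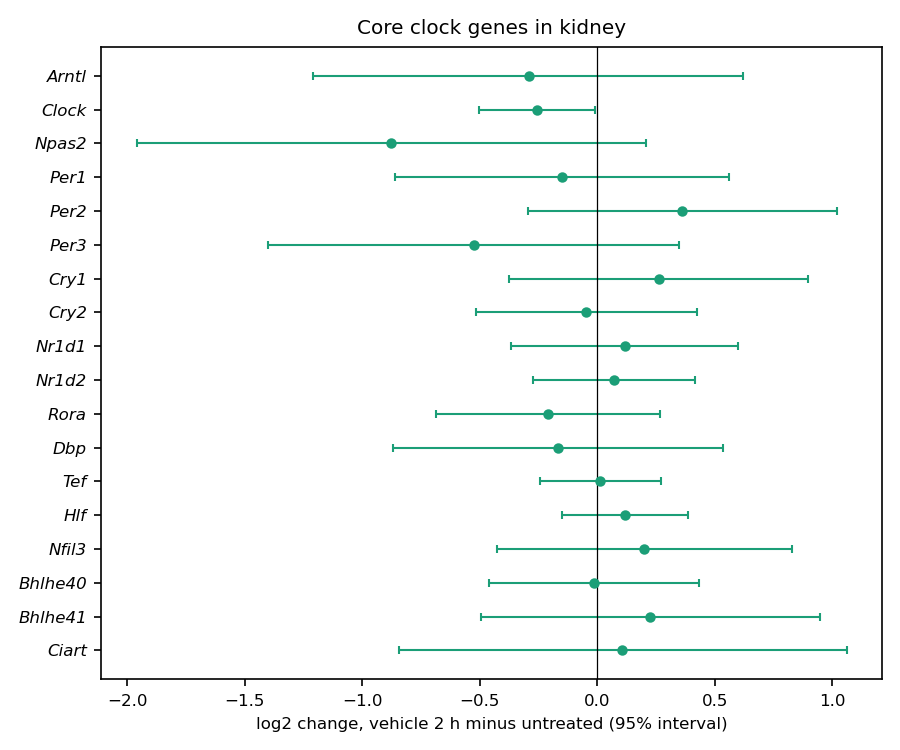
Log2 change of 18 core clock genes in kidney, vehicle 2 h minus untreated, with 95% intervals. The points run from -0.88 for Npas2 to 0.36 for Per2, and the interval of Clock, -0.50 to -0.01, is the one that does not include 0.

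Markers of fibroblasts and mural cells were lower with vehicle as a set of values, although 0 of 12 passed in edgeR, with 4 lower in DESeq2 and 8 lower in limma voom. Their median was -0.66, 7 of the 12 had an unadjusted p under 0.05, all in the same direction, and 4 had every vehicle library below every untreated one. Over all genes tested, 13.6% had such a p in either direction and 10.9% had every vehicle library below. In bulk RNA, fewer cells of a type and less RNA per cell cannot be told apart. The growth factor receptor Pdgfra stood at 35.6, 23.5 and 21.9 CPM with vehicle and 50.2, 38.6 and 62.7 CPM untreated, a log2 difference of -0.90 ± 0.198 (SE, adjusted p = 0.139). Pdgfrb, the mural cell counterpart, differed by -0.81, the collagen gene Col1a2 by -0.66 and the pericyte marker Rgs5 by -0.67, each at adjusted p = 0.175. The summed level of the list was 431, 278 and 312 CPM with vehicle and 557, 541 and 473 CPM untreated. Leaving out vehicle replicate 2 brought the median to -0.50, and leaving out vehicle replicate 1 brought it to -0.94. Fzd2 and Marcks lay lower in the same libraries, and the part of stromal content in their falls was not tested. Vehicle kidneys at 6 h read 29.6 CPM for Pdgfra and 75.9 CPM for Col1a2, near their values at 2 h (27 and 71.2 CPM).

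Endothelial markers had a median of -0.20, and -0.36 without vehicle replicate 1, with 0 of 12 passing in edgeR or DESeq2 and 2 lower in limma voom. Emcn, a glycoprotein of capillary and venous endothelium, differed by -0.34 without overlap (adjusted p = 0.288). Erythroid markers had a median of 1.11, which became 0.50 when vehicle replicate 2 was left out and 1.58 when vehicle replicate 1 was, with 0 of 8 passing in edgeR or DESeq2 and 2 higher in limma voom. The haemoglobin gene Hbb-bs stood at 156, 1040 and 601 CPM with vehicle and at 265, 256 and 225 CPM untreated, so vehicle replicate 1 lay below all untreated libraries. Mitochondrially encoded genes had a median of 0.40, and -0.02 without vehicle replicate 2. The Nrf2 list of antioxidant genes had a median of 0.36, and 0.08 without vehicle replicate 2, with 0 of 21 passing in edgeR, 1 higher in DESeq2 and 7 higher in limma voom. Hmox1, the haem-degrading enzyme, read 30.9, 70.3 and 35.4 CPM against 18.3, 25.1 and 22.8 CPM (log2 difference 1.04, adjusted p = 0.237 in edgeR and 0.0348 in DESeq2), highest in the library with the most erythroid RNA. The part of blood content in the Hmox1 values was not tested.

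Interferon response genes had a median of -0.54, with 19 of 20 at or below 0, 0 passing in edgeR or DESeq2 and 5 lower in limma voom. The median was -0.09 without untreated replicate 1. Oasl2, an interferon-induced gene of the oligoadenylate synthetase family, stood at 5.54, 4.65 and 4.65 CPM with vehicle and at 16, 7.04 and 6.22 CPM untreated (log2 difference -0.98, adjusted p = 0.285). Its groups did not overlap, but the gap to the other untreated libraries was small and untreated replicate 1 stood far above. Irf7, a transcription factor of the pathway, stood at 7.83, 12.4 and 6.74 CPM against 28, 11 and 8.24 CPM, with overlapping groups (log2 difference -0.81, adjusted p = 0.331).

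**Figure D4:**
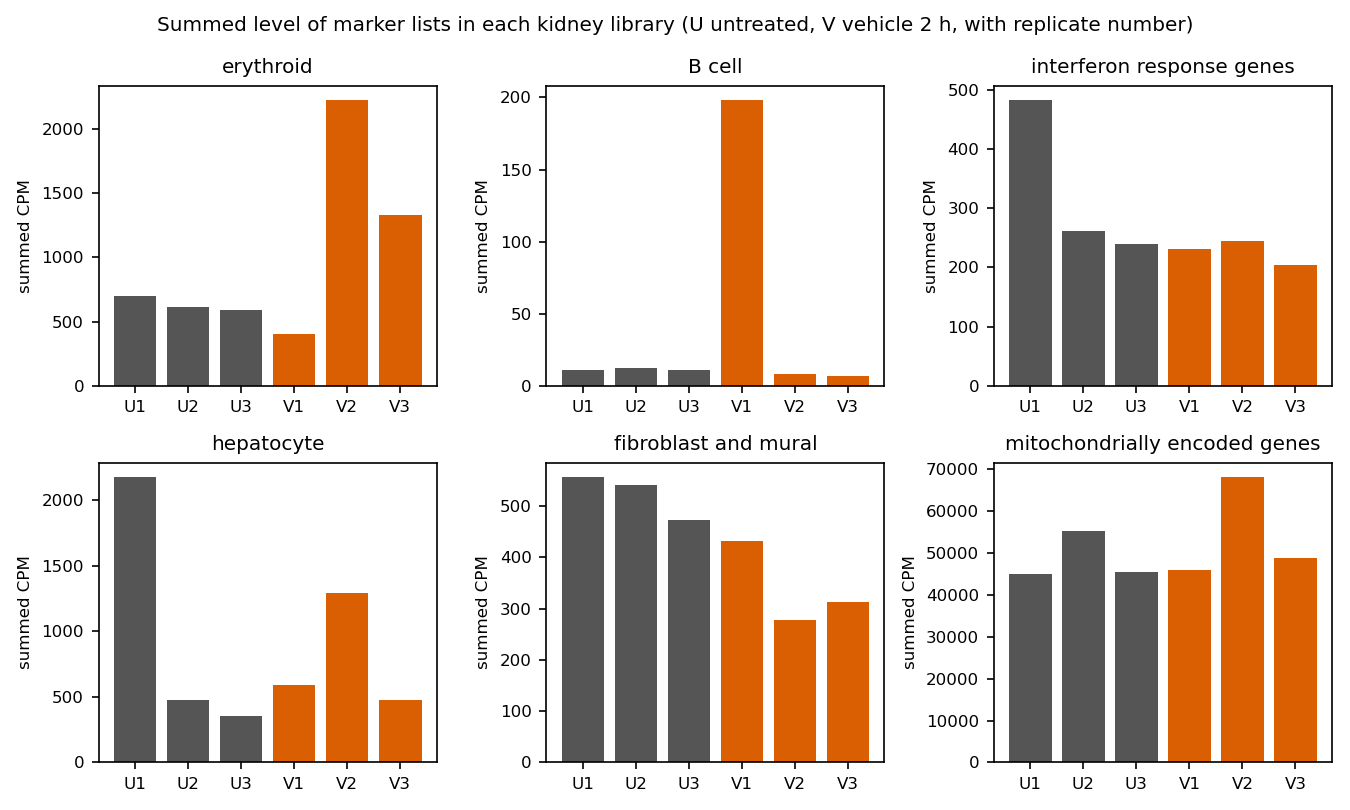
Summed CPM of 6 gene lists in each of the 3 untreated (U1 to U3) and 3 vehicle 2 h (V1 to V3) kidney libraries. The erythroid sum is highest in V2 (2220) and V3 (1330), the B cell sum in V1 (198), the interferon and hepatocyte sums in U1 (482 and 2180), and the fibroblast and mural sum is lower in all 3 vehicle libraries than in all 3 untreated ones.

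No tubule marker passed in edgeR in any segment. DESeq2 called 1 higher in the first proximal tubule segments, 1 higher in the thin limb and 1 lower in the thick ascending limb, and limma voom called 5 higher and 1 lower in intercalated cells, 3 lower in the thick ascending limb, 2 higher in the first proximal tubule segments, 2 higher in the thin limb and 1 higher in the distal convoluted tubule. The median was 0.12 for the first proximal tubule segments, -0.23 for segment S3, -0.19 for the thick ascending limb, 0.23 for the distal convoluted tubule, -0.07 for principal cells and 0.25 for intercalated cells. Podocytes, the filter cells of the glomerulus, had a median of -0.08. Leaving out any 1 of the 6 libraries moved each of these 7 medians by at most 0.12. Slc5a2, the apical sodium and glucose cotransporter Sglt2, read 689, 954 and 817 CPM with vehicle and 519, 564 and 606 CPM untreated. Slc2a2, the basolateral glucose carrier of the same cells, read 303, 394 and 324 CPM against 243, 251 and 239 CPM. Neither gene's groups overlapped, and the log2 differences of 0.54 and 0.48 had adjusted p of 0.166 and 0.145 in edgeR and 0.016 and 0.00796 in DESeq2.

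Slc34a1, the main phosphate carrier, differed by 0.27, and Slc34a3, its relative, by 0.45, both without overlap (adjusted p = 0.33 and 0.271). Cldn4, a tight junction claudin, was at 55.7, 108 and 68.5 CPM against 36.8, 36.5 and 41 CPM, a log2 difference of 1.02 with the highest value in vehicle replicate 2 (adjusted p = 0.145 in edgeR and 0.0103 in DESeq2). Cldn19, the claudin of the thick ascending limb, differed by -0.61 (adjusted p = 0.198 in edgeR and 0.0432 in DESeq2). Among 24 amino acid transporters, 0 passed in edgeR, 1 was higher in DESeq2, and 3 were higher and 3 lower in limma voom. Slc3a2, the heavy chain shared by several of them, differed by 0.44 (adjusted p = 0.168 in edgeR and 0.00891 in DESeq2), and Slc1a4 by -0.58 (0.243 and 0.0737).

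The ligand Egf, which the kidney makes in the thick ascending limb and distal convoluted tubule, stood at 2050, 1150 and 1510 CPM with vehicle and at 1770, 1880 and 2280 CPM untreated. The groups overlapped, and the log2 difference of -0.34 had a 95% interval of -0.76 to 0.09 (adjusted p = 0.466). Its receptor Egfr stood at 61.2, 32.6 and 61 CPM against 47.9, 49.5 and 42.7 CPM, a difference of 0.14 with an interval of -0.42 to 0.71 (adjusted p = 0.826). Both were lowest in vehicle replicate 2. Of the 10 family members tested 0 passed in edgeR or DESeq2, and 2 were lower in limma voom. The ligand Tgfa differed by -0.66 and the co-receptor Erbb2 by -0.54 without overlap, and the ligand Hbegf by 0.45 with overlap (adjusted p = 0.223, 0.33 and 0.379). Of the 21 feedback genes of the pathway 0 passed in edgeR or DESeq2, and 2 were higher and 3 lower in limma voom. Their median was -0.02, and -0.15 without vehicle replicate 1. The phosphatase gene Dusp8 differed by 0.79 and the inhibitor Spry1 by -0.51 (adjusted p = 0.281 and 0.285).

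The kidney injury list had a median of 0.09, with 0 of 20 passing in edgeR, 2 higher in DESeq2, Atf3 and Cdkn1a, and 3 higher in limma voom. In the metabolic lists the median was 0.09 for cholesterol synthesis, -0.06 for fatty acid synthesis, 0.01 for fasting and PPAR-alpha genes, 0.00 for gluconeogenesis and glycolysis control and 0.03 for hypoxia genes, with 0 passing in edgeR in each. Leaving out any 1 library moved each of these medians and that of the injury list by at most 0.17. DESeq2 called 1 cholesterol gene, Nsdhl, 1 fasting gene, Angptl4, and 2 glucose genes, Slc5a2 and Slc2a2, as higher, and 1 hypoxia gene, Slc2a1, as lower, while limma voom called members of all 5 lists. Lpin1, a phosphatidate phosphatase induced by fasting and glucocorticoids, read 116, 56.4 and 98.4 CPM against 55.4, 55.9 and 46.1 CPM (log2 difference 0.78, adjusted p = 0.33). The sterol enzyme gene Nsdhl differed by 0.40 (adjusted p = 0.209 in edgeR and 0.0263 in DESeq2), and Srebf1, the lipogenic transcription factor, by -0.58 (adjusted p = 0.237). Slc2a1, the basal glucose carrier, differed by -0.43 (adjusted p = 0.183 in edgeR and 0.0385 in DESeq2). NF-kB targets had a median of -0.17, -0.36 without vehicle replicate 1 and -0.07 without untreated replicate 1, with 0 of 16 passing in edgeR or DESeq2 and 1 lower in limma voom, and Icam1, an adhesion molecule, differed by -0.50 (adjusted p = 0.329).

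Heart, lung and liver of the same groups gave the comparison for what the kidney shared. A fit over all 68 libraries tested whether the kidney change differed from the mean change of the other 3 organs, over 18736 genes. In it 0 genes (0%) were higher in kidney and 1 gene (0.00534%) was lower, with 562 at an unadjusted p under 0.05. CPM values compared among organs come from that fit and are on another scale than those of the fit within kidney.

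The called gene was Adra1b, which encodes the alpha-1B adrenergic receptor for noradrenaline. In kidney it stood at 1.67, 1.6 and 0.915 CPM with vehicle and 4.07, 2.66 and 2.93 CPM untreated, a log2 change of -1.21. In heart the change was 0.27, in lung 0.61 and in liver 0.41, none of which passed. The difference between kidney and the mean of the others was -1.64 ± 0.292 (SE, adjusted p = 0.0151). The call on Adra1b was lost without vehicle replicate 3 of kidney (adjusted p = 0.261) and without untreated replicate 1 of kidney (adjusted p = 0.501). It was also lost with only the 24 vehicle 2 h and untreated libraries of the 4 organs (adjusted p = 0.35) and with the replicate number as a block in them (adjusted p = 0.392). The kidney change of Adra1b in the comparison within kidney had an adjusted p of 0.187.

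For the genes called in kidney the difference from the other organs did not pass. Nr4a3 changed by 4.05 in kidney, 2.60 in heart, 1.53 in lung and 1.71 in liver, and the difference of 2.10 ± 0.754 (SE) had an unadjusted p of 0.00735 and an adjusted p of 1. In heart it stood at 12.5 to 17.4 CPM with vehicle and 0.744 to 5.6 CPM untreated, with an adjusted p of 0.00154 for its change. Herpud1 changed by 1.00 in kidney and 1.26 in liver, against 0.13 in heart and 0.23 in lung. Its liver levels were 944, 1160 and 1040 CPM with vehicle and 454, 477 and 374 CPM untreated (adjusted p = 1.68e-07). Marcks changed by -1.13 in kidney, -0.69 in heart, 0.02 in lung and -0.49 in liver. Fzd2 changed by -0.91, -0.49, -0.60 and -1.43 in kidney, heart, lung and liver. Atf3 changed by 1.96 in kidney, 1.73 in heart, -0.06 in lung and 1.30 in liver, and with the spread shared over 68 libraries its kidney change had an adjusted p of 0.0203, while that of Fzd2 had 0.105.

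**Figure D5:**
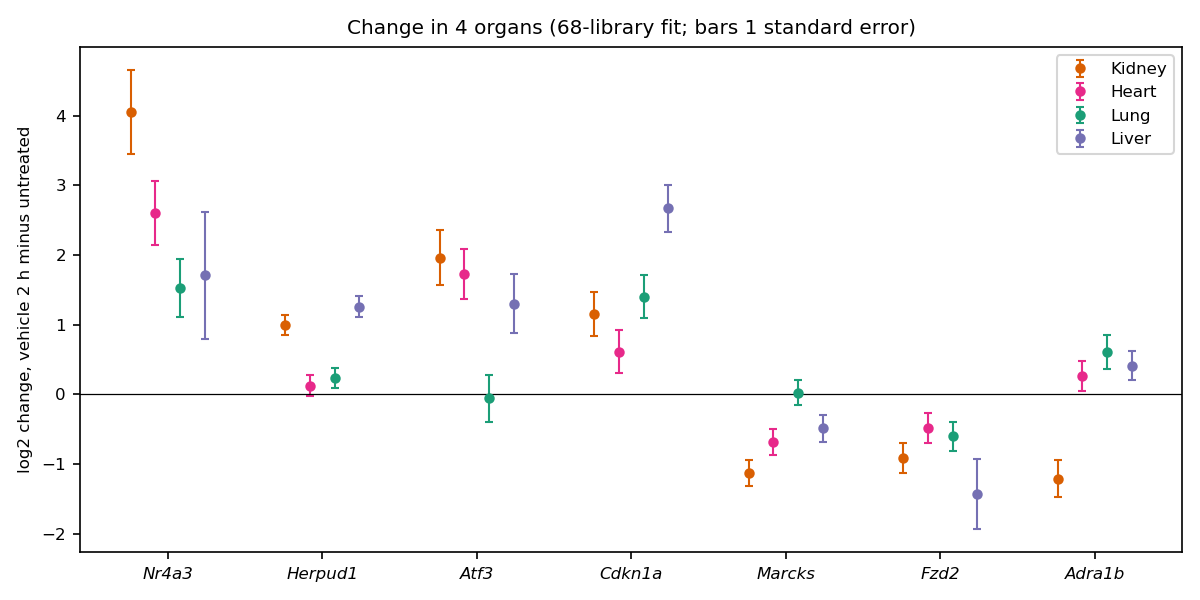
Log2 change of 7 genes, vehicle 2 h minus untreated, in kidney, heart, lung and liver from the fit over 68 libraries, with bars of 1 SE. Adra1b is lower in kidney (-1.21) and between 0.27 and 0.61 in the other organs, and Herpud1 is at 1.00 in kidney and 1.26 in liver against 0.13 in heart and 0.23 in lung.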

How the data were processed

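The authors deposited 1 table of raw read counts per gene for 56748 genes and 68 libraries of polyadenylated RNA, made from non-directional libraries. Reads were aligned with HISAT2 2.0.5 and counted with featureCounts 1.5.0-p3 on mm39, per the submitters' processing notes, while annotation release and counting options were not given in the sources used here. Without strand, the reads of a gene and of a gene overlapping it are mixed in such counts. Gene identifiers and coordinates are those of the deposited table, in which 882 entries repeat a symbol. The 17 kidney libraries in 5 groups were fitted with edgeR 4.0.16 in R 4.3.3 (filterByExpr, TMM scaling, robust quasi-likelihood F test, Benjamini-Hochberg over 15654 genes), and the contrast was vehicle 2 h minus untreated. CPM are TMM-scaled. The common biological coefficient of variation was 0.192 and the median SE of a log2 change 0.2, so the spread between libraries limits the precision beside the depth. Among the alternatives were DESeq2 1.42.0, limma 3.58.1 voom, 2 other scalings, 2 other filters, a smaller fit, a covariate and each library left out. A difference among organs was tested over 68 libraries in 20 groups, and whether organs came from the same mice is not given in the labels. The procedure was tested on simulated data.

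Genes were named by a rule: those called, if at 1 CPM or more on average in either group, with no overlap and an informative symbol, all core clock genes, up to 5 members of every other list by smallest p, and Egf and Egfr. Crem and Nr3c1 lie outside it, as do genes of smaller p not described, such as Rhof and Pcyt1a (edgeR adjusted p = 0.11). Of the genes it named, 2 are not reported here. The members and lists were chosen with earlier results of these data known. Lists are described by counts and medians and no list was tested. List medians without a single library were added after seeing the data.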

Additional observations from a re-analysis of the deposited data

Results flagged for a closer look

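Adra1b is given here because its response to vehicle differed between organs by a test of the difference itself. The log2 difference of kidney minus the mean of heart, lung and liver was -1.64 ± 0.292 (SE, edgeR adjusted p = 0.0151). The call was lost without vehicle replicate 3 (adjusted p = 0.261) and without untreated replicate 1 (0.501) in kidney, with only the 24 vehicle 2 h and untreated libraries (0.35), and with the replicate block in them (0.392). All 3 vehicle kidneys were below all 3 untreated kidneys. The kidney values rest on 34, 29 and 18 reads with vehicle and 95, 63 and 58 reads untreated. Groups of 3 libraries were not tested for outlying libraries.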

How the results depend on the processing

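With 3 libraries a group, the counts of called genes moved with the tool and the libraries used, and no called gene changed direction. The kidney count of 4 was the same with RLE or upper quartile factors and with a minimum mean of 1 CPM, and 6 without a filter on low counts. It was 146 with DESeq2 (63 higher and 83 lower), 2843 with limma voom with quality weights (1370 and 1473), 0 with only the 6 libraries compared and 34 with a covariate for adrenal cortex markers. The summed tested markers of adrenal cortex were 131 to 189 CPM with vehicle and 113 to 115 CPM untreated, so that covariate is confounded with the comparison. Leaving out 1 library gave 2 to 12 calls. The replicate numbers are not shown to pair the libraries, since the deviations of same-numbered libraries correlated at 0.05, -0.32 and 0.2. With the replicate number as a block in the 6 libraries, 0 genes passed and 1658 had an unadjusted p under 0.05. The causes of these moves were not tested. The fits of 6 differ from the main fit in the number of libraries and also in the genes past the filter, 14950 against 15654. Over the 15 alternatives, Nr4a3 passed in 13 and Herpud1 in 13, with log2 changes of 3.66 to 4.73 and 0.95 to 1.04, while Marcks and Fzd2 each passed in 9. Of 103 other genes compared, 90 kept their direction in every alternative, 13 changed sign in at least 1, and 68 passed in at least 1. Many of them were named by smallest p in these same libraries, so a kept direction is not independent support. The alternatives include limma voom, which called 18.2% of all genes. For the difference between kidney and the other organs the count of 1 became 315 with limma voom, 0 with only the 24 vehicle 2 h and untreated libraries, 0 with the replicate block in those libraries (517 at an unadjusted p under 0.05), and 0 to 3 when 1 kidney library was left out.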
